A study of Mus musculus with 207 samples.

Results

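Transcripts of the hormone somatostatin (Sst) reached 100 TPM (transcripts per 1000000) or more in 56 of 207 mouse islet cells that carry a beta-cell label. These Sst-containing cells were chosen by their measured Sst value and were set against the 64 Sst-poor cells below 10 TPM, with 87 cells between. The study took single cells from pancreatic islets of male mice at 26 months (Old, 69 cells) and at 3 months (Young, 138 cells). Cells were captured in microfluidic C1 circuits, their complementary DNA was made with the SMARTer kit and the libraries were made with Nextera XT, with no molecular barcodes recorded in the labels. The labels give no strain, treatment, number of mice or mouse of origin for any cell, so each age is 1 sample, cells are not replicates of an age, and all differences below are descriptions without p-values. The old mice gave 28 Sst-containing cells (40.6% of 69, exact binomial interval 28.9 to 53.1%), 25 cells between and 16 Sst-poor cells. The young mice gave 28 Sst-containing cells (20.3% of 138, 13.9 to 28.0%), 62 cells between and 48 Sst-poor cells. At 1000 TPM or above stood 6 old cells (8.70%, 3.26 to 18.0%) and 0 of 138 young cells, a count that, by the limit of 3 counts used here for 0, allows a share of up to 2.17%. These intervals and limits cover counting error only.

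Somatostatin is the peptide of islet delta cells. It acts on neighbouring cells through receptors that couple to inhibitory G proteins, and it restrains the release of both insulin and glucagon. Delta cells are further known for the homeodomain repressor Hhex, the retinol carrier Rbp4, the G-protein regulator Rgs2, the opioid precursor Pdyn and the ghrelin receptor Ghsr. All 56 Sst-containing cells carry the beta-cell label and held insulin transcripts. Ins1 and Ins2 together made up 34.2 to 69.9% of the TPM of the 28 old cells and 15.7 to 77.7% of that of the 28 young cells. The lowest share, 15.7%, was in young cell 72, which had 1227 TPM of the amylin gene Iapp and the immune transcripts given below. Whether the label fits each cell was not tested.

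Sst lies on chromosome 16, 23889573 to 23891342 (GRCm38.p6), on the minus strand. Its promoter is shown because its transcript defines the classes. The stretch from 250 bases before to 50 bases after the start, chr16:23890795-23891094, is given from RefSeq in the direction of transcription, with the palindromic cAMP response element TGACGTCA in capitals.
Sst promoter: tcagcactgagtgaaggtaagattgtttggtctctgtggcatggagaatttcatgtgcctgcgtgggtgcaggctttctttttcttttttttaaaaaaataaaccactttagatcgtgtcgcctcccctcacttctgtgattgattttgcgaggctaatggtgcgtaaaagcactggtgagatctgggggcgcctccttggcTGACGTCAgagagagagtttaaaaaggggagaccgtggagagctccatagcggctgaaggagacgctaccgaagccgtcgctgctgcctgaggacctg
The element, searched on both strands, begins at position -48 and was present in 588 of 32817 RefSeq promoters of the same length (1.79%). The letters TAATTA, the core bound by many homeodomain proteins, were in 5.30% of promoters and not in this window. The listed windows of Rbp4, Pyy and Ppy, the genes closest to Sst in young cells below, held neither motif.

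The values that chose the cells were graded and did not fall into separate groups below 1000 TPM. In old cells the Sst value just inside the upper threshold was 105 TPM and the one just outside was 96.8 TPM, and around the lower threshold they were 10.1 and 8.36 TPM. In young cells the neighbouring values were 103 and 94.1 TPM at the upper threshold and 10.3 and 9.77 TPM at the lower one. A gap lay below the 6 highest old cells, between 1031 and 540 TPM.

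**Figure D1:**
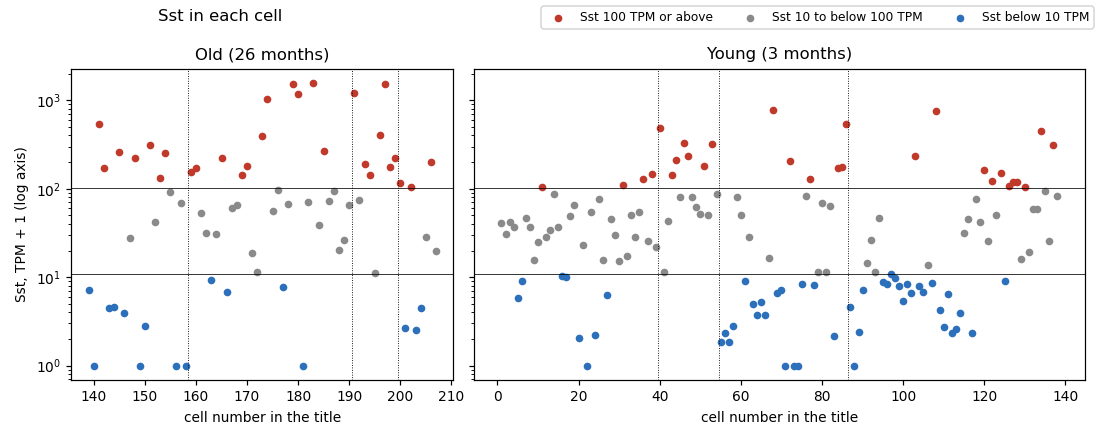
Sst in each of 69 old and 138 young cells on a log axis (TPM + 1), against the cell number in the title; horizontal lines mark 100 and 10 TPM and dotted lines the ends of runs of cell numbers that differ in technical measures. The 6 cells above 1000 TPM are old, and 2 runs, 40 to 54 and 191 to 199, hold no Sst-poor cell.

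Sst-containing cells had fewer detected genes and came unevenly from the runs of cell numbers. A gene counted as detected at 1 TPM or above, and the old Sst-containing cells had a median of 3749.5 detected genes, against 4613 in old Sst-poor cells, with medians of 4034.5 in young Sst-containing cells against 4584.5 in young Sst-poor cells. Young cells 40 to 54, with a median of 2320 detected genes, held 7 Sst-containing and 0 Sst-poor cells, and old cells 191 to 199 held 7 and 0. By their mitochondrial ribosomal and transfer RNA the runs fall into a low kind (1 to 39, 40 to 54, 159 to 190 and 200 to 207) and a high kind (the others). Values within the kinds stand beside many of the results, but they are not values within a run. In the young low kind, 7 of 11 Sst-containing cells were from cells 40 to 54. All 8 Sst-poor cells were from cells 1 to 39, with a median of 3944 detected genes. In the old high kind, 7 of 14 Sst-containing cells were from cells 191 to 199, and all 9 Sst-poor cells from cells 139 to 158. One young Sst-containing cell, cell 72, carried 85942 TPM of 10 immune marker genes and the lowest insulin share, 15.7%. In the other 55 Sst-containing cells that sum was at most 234 TPM, and 6 endothelial markers summed to at most 5.17 TPM except in 1 old cell, cell 194, at 738 TPM. Summed markers of duct cells, some of which islet cells also carry, had medians of 105 TPM in old Sst-containing and 109 TPM in old Sst-poor cells, with 42.8 TPM in young Sst-containing and 36.3 TPM in young Sst-poor cells. No doublet caller was run, and whether detected genes, runs or a second cell in a capture site contributed to the differences below was not tested.

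Of the delta-cell genes Rbp4, Hhex, Rgs2 and Pdyn, Rbp4 had the highest rank correlation with Sst at both ages. In old cells Rbp4 was detected in 18 of 28 Sst-containing cells (64.3%, exact interval 44.1 to 81.4%) and in 11 of 25 cells between (44.0%), and it was listed at 0 in all 16 Sst-poor cells, a count of 0 that allows a share of up to 18.8%. In young cells it was detected in 15 of 28 Sst-containing cells (53.6%, 33.9 to 72.5%), 10 of 62 cells between (16.1%) and 4 of 48 Sst-poor cells (8.33%, 2.32 to 20.0%). The level was low beside Sst and graded with it.

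Old Sst-containing cells had Rbp4 from 0 through a median of 1.86 to 35.2 TPM, with a mean of 5.12 ± 8.25 TPM (SD between cells, n = 28). Young Sst-containing cells had 0, 1.12 and 80.9 TPM as lowest, median and highest, with a mean of 6.46 ± 17.7 TPM (n = 28), against 0, 0 and 7.24 TPM and a mean of 0.477 ± 1.43 TPM in young Sst-poor cells (n = 48). The log2 ratio of the young means, with 1 TPM added to each, was 2.34, and it was 1.67 without the highest cell. It was 2.19 within runs of the low kind and 2.56 within runs of the high kind. These means rested on few cells. In the high kind, cells 122 and 137 held 48.3 and 80.9 TPM and the other young Sst-containing cells at most 2.40 TPM. In the low kind, cell 36 held 27.2 TPM and the others at most 2.94 TPM. In young cells 55 to 86, of the high kind, Rbp4 was detected in 1 of 6 Sst-containing and 2 of 17 Sst-poor cells, with means of 0.362 TPM in Sst-containing and 0.693 TPM in Sst-poor cells. In old cells 200 to 207 it was detected in 0 of 3 Sst-containing and 0 of 3 Sst-poor cells. Among cells with 3500 to 5000 detected genes, a window chosen after the data were seen, it was 2.90. Rbp4 stands outside the counts of genes below, because its mean lay under 10 TPM in every class except the 6 highest old cells.

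Rbp4 was detected in a larger share of cells at each higher step of Sst above 10 TPM. In old cells the share was 44.0% at 10 to 100 TPM of Sst, 50.0% of 18 cells at 100 to 300 TPM, 75.0% of 4 cells at 300 to 1000 TPM and 100% of 6 cells above. In young cells it was 16.1% at 10 to 100 TPM, 40.0% of 20 cells at 100 to 300 TPM and 87.5% of 8 cells at 300 to 1000 TPM. Over all genes detected in at least 10% of the cells, Rbp4 had the highest Spearman correlation with Sst in old cells (rho = 0.66 over 69 cells, rank 1 of 9807 genes). In young cells it ranked behind Ppy and Pyy (rho = 0.40 over 138 cells, rank 3 of 10211 genes). These cells come from shared runs, the correlations are descriptions, and this ranking without a minimum mean was made after Rbp4 had been looked at. Rbp4 per 1000 TPM of Sst had a median of 8.32 TPM in old and 4.22 TPM in young Sst-containing cells, and it spread from 0 to 56.4 TPM in the old and from 0 to 395 TPM in the young.

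**Figure D2:**
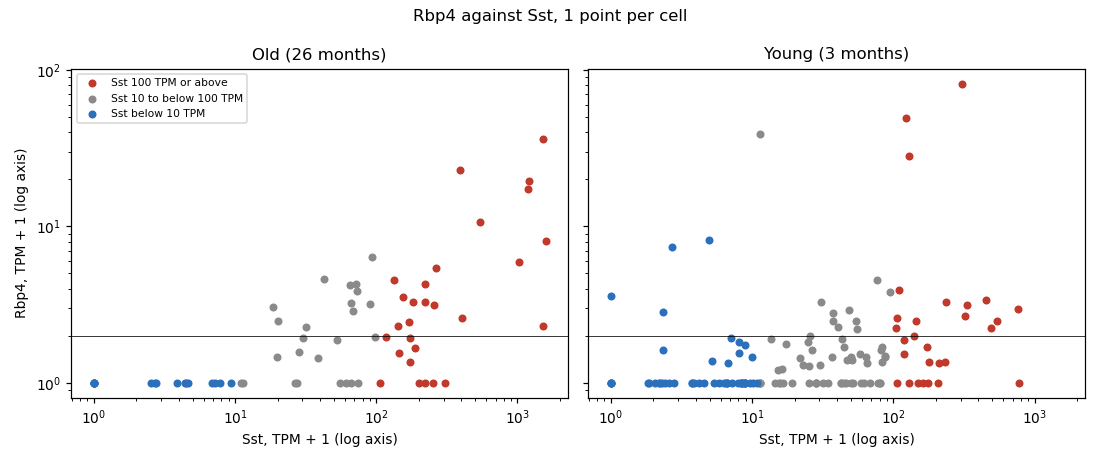
Rbp4 against Sst in single cells, both as TPM + 1 on log axes, with the horizontal line at 1 TPM of Rbp4, from which a gene counts as detected. All 16 old Sst-poor cells lie at 0, while 18 of 28 old and 15 of 28 young Sst-containing cells lie on or above the line.

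Hhex, which keeps the delta-cell fate in the mouse, was detected in few cells of any class. In young cells 5 of 28 Sst-containing cells (17.9%, exact interval 6.06 to 36.9%) had it, with a highest value of 52.8 TPM, against 1 of 48 Sst-poor cells (2.08%, 0.0527 to 11.1%) with a highest value of 1.01 TPM, but cells between had it about as often, in 9 of 62 (14.5%). All 5 young Sst-containing cells with Hhex had Sst between 100 and 300 TPM, and 0 of 8 with more Sst had Hhex detected. Those 5 were cells 11, 31, 36 and 38, of the run 1 to 39, and cell 72, the cell with immune transcripts, at 49.0 TPM. The 9 cells between and the 1 Sst-poor cell with Hhex were also from cells 1 to 39. Detection of Hhex in young cells thus followed this run, and whether it followed Sst apart from the run was not tested. In old cells Hhex was detected in 1 of 28 Sst-containing cells, at 2.02 TPM, and was listed at 0 in all 16 Sst-poor cells. Counting any value above 0, Hhex was in 9 of 28 old Sst-containing cells, 2 of 25 old cells between and 0 of 16 old Sst-poor cells. In young cells Hhex was above 0 in 10 of 28 Sst-containing cells, 21 of 62 cells between and 9 of 48 Sst-poor cells. Its Spearman correlation with Sst was 0.40 over 69 old and 0.16 over 138 young cells.

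Rgs2 and Pdyn did not follow Sst. Rgs2 averaged 80.0 ± 388 TPM in young Sst-containing cells (n = 28) and 36.8 ± 74.7 TPM in young Sst-poor cells (n = 48), a log2 ratio of 1.10. That ratio rested on cell 72, the cell with immune transcripts, which held 2059 TPM, and without it the ratio was -2.30. In old cells Rgs2 averaged 11.2 ± 31.2 TPM in Sst-containing cells (n = 28) and 18.2 ± 45.6 TPM in Sst-poor cells (n = 16), and it was listed at 0 in all 6 old cells above 1000 TPM of Sst. The old log2 ratio for Rgs2 was -0.65, with 2.36 in the low and -2.90 in the high kind of run. Pdyn averaged 41.8 ± 103 TPM in old Sst-containing cells (detected in 8 of 28) and 18.8 ± 74.7 TPM in old Sst-poor cells (detected in 1 of 16), a log2 ratio of 1.11 that was 0.57 without the highest cell. In young cells Pdyn was lower in Sst-containing cells, at 27.5 ± 57.9 TPM against 60.7 ± 188 TPM in Sst-poor cells, a log2 ratio of -1.11 (-0.41 without the highest cell, an Sst-poor one), with detection in 32.1% of Sst-containing and 31.2% of Sst-poor cells. The sign for Pdyn was thus opposite at the 2 ages, and the difference between the ages was not tested.

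Of the remaining delta-cell markers Etv1 alone passed 10 TPM in a class mean. Etv1, a transcription factor, averaged 3.36 TPM in old Sst-containing and 13.4 TPM in old Sst-poor cells (log2 ratio -1.72, and -0.10 without the highest cell, an Sst-poor one), and 2.03 TPM in young Sst-containing and 4.63 TPM in young Sst-poor cells. Casr, the calcium-sensing receptor, stayed under 1.5 TPM on average in all 4 classes. The phosphatase Ptprz1 was detected in 1 young Sst-poor cell only, and Ghsr and Spock3 reached 1 TPM in none of the 120 compared cells. Lepr and Bche were listed at 0 in all of them. Over the delta-cell markers other than Sst with a mean of 1 TPM or more in either class, the median log2 ratio was 0.23 in old cells (4 genes) and -0.89 in young cells (7 genes), beside medians of -0.27 and -0.21 over all genes compared.

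Ppy and Pyy, which encode the hormones pancreatic polypeptide and peptide YY, were the genes closest to Sst in young cells. Ppy ran from 0 through a median of 48.4 to 418 TPM in young Sst-containing cells, against 0, 4.13 and 471 TPM in young Sst-poor cells. It averaged 87.3 ± 100 TPM in Sst-containing cells (n = 28) and 18.7 ± 68.2 TPM in Sst-poor cells (n = 48). The log2 ratio was 2.16 over all cells, 3.53 in runs of the low kind and 1.94 in runs of the high kind, and it was 3.13 without the highest cell, an Sst-poor one. Pyy had a median of 22.8 TPM in young Sst-containing cells and 4.00 TPM in young Sst-poor cells, with means of 32.9 ± 29.6 TPM in Sst-containing and 14.9 ± 60.4 TPM in Sst-poor cells and a log2 ratio of 1.09. Without the highest cell, an Sst-poor one at 419 TPM, the ratio for Pyy was 2.21, and it was 3.04 in the low and 0.89 in the high kind of run.

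In old cells Pyy had a higher mean with Sst in both kinds of run, and Ppy had not. Pyy averaged 189 ± 434 TPM in old Sst-containing cells (n = 28) and 28.7 ± 40.0 TPM in old Sst-poor cells (n = 16), with medians of 26.2 TPM in Sst-containing and 8.62 TPM in Sst-poor cells. The log2 ratio was 2.67, and 2.00 without the highest cell, which held 2101 TPM. It was 5.14 in runs of the low kind and 1.18 in runs of the high kind. All 9 Sst-poor cells of the high kind were from cells 139 to 158. Among the 7 Sst-containing cells of that run, Pyy was 346 TPM in cell 141 and 0 to 53.3 TPM in the others. In its 9 Sst-poor cells Pyy was 2.15 to 131 TPM, so a rise within that run rested on 1 cell. Ppy averaged 106 ± 186 TPM in old Sst-containing cells and 107 ± 160 TPM in old Sst-poor cells, with medians of 27.5 TPM in Sst-containing and 19.0 TPM in Sst-poor cells. Its log2 ratio was 2.14 in runs of the low kind and -0.53 in runs of the high kind. Ppy and Pyy are neighbours on chromosome 11, at 102099931 to 102101319 and 102106676 to 102107832 (GRCm38.p6).

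Gcg, the glucagon precursor of alpha cells, had a median of 14.7 TPM in old Sst-containing cells against 2.76 TPM in old Sst-poor cells, and means of 34.4 ± 50.9 TPM in Sst-containing and 14.5 ± 25.9 TPM in Sst-poor cells. The log2 ratio of the old means, 1.19, came from the high kind of run, at 3.99, and was -0.20 in the low kind. In young cells Gcg averaged 99.2 ± 134 TPM in Sst-containing and 107 ± 98.9 TPM in Sst-poor cells, with log2 ratios of -2.78 in the low and 0.62 in the high kind of run. Among young cells, 50.0% of the 28 Sst-containing cells had Gcg, Ppy or Pyy at 100 TPM or above, and 41.7% of the 48 Sst-poor cells had. In old cells the shares were 42.9% of 28 Sst-containing and 31.2% of 16 Sst-poor cells. The ghrelin gene Ghrl, cholecystokinin (Cck) and cortistatin (Cort), the closest relative of Sst, were listed at 0 in all compared cells.

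**Figure D3:**
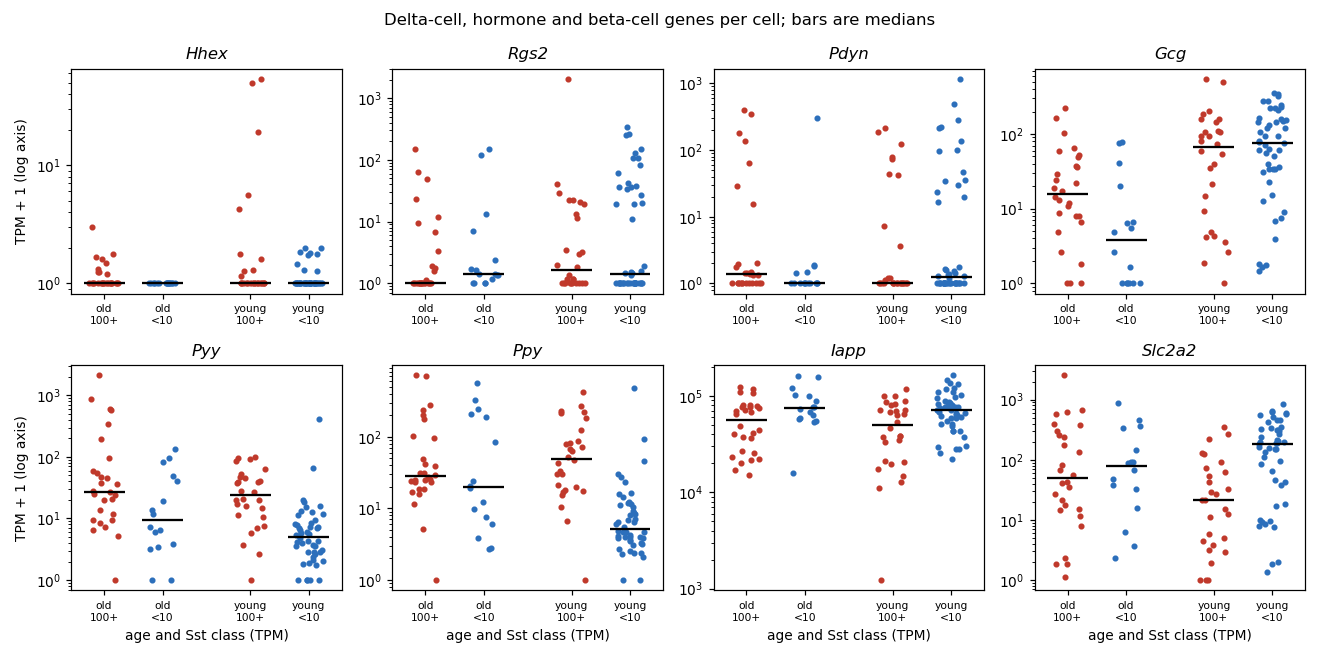
Single-cell values (TPM + 1, log axis) of 8 delta-cell, hormone and beta-cell genes, Sst-containing cells (100+) left of Sst-poor cells (<10) at each age, with black bars at the medians. In young cells the bar of Ppy is at 48.4 TPM in Sst-containing and 4.13 TPM in Sst-poor cells, while Slc2a2 has 20.4 TPM in Sst-containing and 184 TPM in Sst-poor cells.

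The 6 old cells above 1000 TPM of Sst all had Rbp4 and insulin. In 5 of them Iapp, Pcsk2 and Cpe were low beside the Sst-poor cells. Low values were common in the 6 cells: of 3960 genes compared, 63.5% had a 2-fold lower mean, with a median log2 ratio of -1.87. Iapp, at -1.25, was less low than that median. The Sst values of the 6 cells were 1031, 1511, 1188 and 1579 TPM in cells 174, 179, 180 and 183, of the run 159 to 190. In cells 191 and 197, of the run 191 to 199, they were 1213 and 1522 TPM. Rbp4 stood at 4.93, 35.2, 16.4, 7.08, 18.4 and 1.31 TPM in the same order, against 0 in all 16 old Sst-poor cells. Pyy was at 26.9, 608, 885, 44.5, 93.5 and 194 TPM, against a median of 8.62 and a highest value of 131 TPM in old Sst-poor cells, and the groups overlapped. Hhex was detected in none of the 6.

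Iapp, the amylin gene, separated cell 183 from the other 5. Those had 15212 to 23493 TPM of Iapp, and cell 183 had 108574 TPM, against a median of 74543 TPM (15904 to 162566) in old Sst-poor cells. The prohormone convertase Pcsk2 was at 36.8 to 135 TPM in the 5 and at 1113 TPM in cell 183, against 170 to 814 TPM in Sst-poor cells. The islet glucose-6-phosphatase G6pc2 was at 35.6 to 198 TPM in the 5 and 1414 TPM in cell 183, against a median of 914 TPM in Sst-poor cells. Carboxypeptidase E (Cpe), which trims prohormones, was at 72.4 to 326 TPM in the 5 and 2914 TPM in cell 183, against 527 to 3702 TPM in Sst-poor cells.

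The 6 highest cells had a median of 2737.5 detected genes (1916 to 3749), against 4613 in old Sst-poor cells. Mitochondrial coding transcripts made up a median of 25.2% of their TPM, against 10.2% in Sst-poor cells, and cell 183 had the lowest share of the 6, 8.46%. The mitochondrially encoded complex I subunit mt-Nd4 averaged 28109 ± 15872 TPM in the 6 and 5932 ± 5239 TPM in the 16 Sst-poor cells, a log2 ratio of 2.24. The insulin share of the 6 had a median of 54.9%, against 50.8% in Sst-poor cells. Whether the small number of detected genes or the mitochondrial share has a part in what is low in these cells was not tested.

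Among 3960 genes compared between the 6 highest cells and the old Sst-poor cells, 409 (10.3%) had a 2-fold higher mean and 2516 (63.5%) a 2-fold lower one, with a median log2 ratio of -1.87 over all genes. A gene was compared where its mean reached 10 TPM in either class and it was detected in 25% of the cells of the class with the higher mean. Against that background, 9 of 15 measured granule and prohormone genes, 7 of 11 beta-cell genes and 10 of 13 antioxidant and metal-response genes were 2-fold lower, with median log2 ratios of -1.43, -1.27 and -2.61. In runs of the low kind, which hold 4 of the 6 cells, cell 183 among them, the beta-cell median was 0.03 and the granule median -0.57, beside -1.49 for all genes. In runs of the high kind they were -2.15 and -2.55, beside -3.52 for all genes. Of 13 mitochondrial coding genes, 7 had a 2-fold higher mean and 0 a 2-fold lower one. Cytosolic ribosomal proteins stood at -0.22, with 4 of 25 lower and 2 higher. Herpud1, a component of endoplasmic-reticulum-associated degradation, was at 0 to 4.02 TPM in the 6 cells and at 2.36 to 725 TPM in Sst-poor cells, a log2 ratio of -5.67. Anxa5, a calcium-dependent phospholipid-binding protein, was at 0.188 to 45.4 TPM in the 6 cells and at 1.09 to 2108 TPM in Sst-poor cells, a log2 ratio of -5.55. Derl1, a channel protein of that degradation pathway, was at 3.38 to 433 TPM in the 6 cells and at 0 to 32.0 TPM in Sst-poor cells, a log2 ratio of 3.95. Without cell 183 the counts were 272 higher and 2857 lower.

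**Figure D4:**
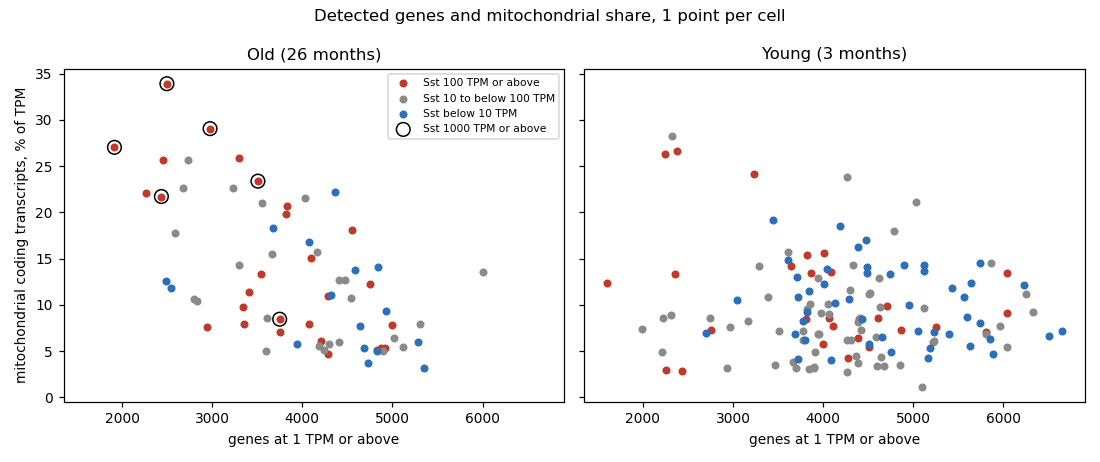
Share of TPM in mitochondrial coding transcripts (%) against the number of detected genes, 1 point per cell, with the 6 old cells above 1000 TPM of Sst ringed. Of these, 5 lie at 21.7 to 33.9% and cell 183 at 8.46%.

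Over all 28 Sst-containing cells of each age, more genes had a lower mean than a higher one. In old cells 565 of 4233 genes (13.3%) were 2-fold higher and 1058 (25.0%) 2-fold lower than in Sst-poor cells. In young cells 434 of 4354 genes (9.97%) were 2-fold higher and 806 (18.5%) 2-fold lower. The young median log2 ratio over all genes was -0.21, and 0.02 without cells 40 to 54. Among cells with 3500 to 5000 detected genes, a window chosen after the data were seen, the median was 0.14 in young and -0.11 in old cells. When TPM was rescaled after removing Sst, both insulin genes and all mitochondrial genes, the higher genes made up 47.8% of the old calls, against 34.8% as deposited. For the 6 highest cells this split was 25.2%, against 14.0%. That rescaling put the median of all genes at -0.04 in old cells, against -0.27 as deposited, and at -1.31 in the 6 highest, against -1.87, so a low list is read here against the median of all genes.

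In young cells, some genes of glucose entry and of the mature beta cell had lower means in Sst-containing cells. Over all genes compared in young cells, 18.5% were 2-fold lower and 9.97% higher. Of 6 measured genes of glucose sensing and calcium entry, 4 were 2-fold lower and 0 higher, with a median log2 ratio of -1.11 (-2.04 in the low and -0.93 in the high kind of run). Of 13 measured beta-cell genes, 4 were lower and 0 higher (median -0.72, with -1.58 in the low and -0.34 in the high kind), beside medians over all genes of -0.68 in the low and -0.10 in the high kind. Slc2a2, the glucose transporter GLUT2, had a lowest, median and highest value of 0, 20.4 and 348 TPM in young Sst-containing cells, against 0.336, 184 and 856 TPM in young Sst-poor cells. The means were 56.5 ± 87.4 TPM in Sst-containing and 225 ± 212 TPM in Sst-poor cells and the log2 ratio was -1.98, being -3.62 within runs of the low kind and -1.48 within runs of the high kind.

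Pdx1, the transcription factor that drives insulin and Slc2a2, averaged 1.84 ± 3.55 TPM in young Sst-containing cells and 13.6 ± 28.2 TPM in young Sst-poor cells (log2 ratio -2.36). Kcnj11, the pore of the ATP-sensitive potassium channel, averaged 5.54 ± 11.9 TPM in Sst-containing and 20.7 ± 38.8 TPM in Sst-poor cells (-1.73). G6pc2 averaged 623 ± 515 TPM in Sst-containing and 1279 ± 868 TPM in Sst-poor cells (-1.04). Pax6, a transcription factor shared by all islet endocrine cells, averaged 15.6 ± 18.3 TPM in Sst-containing and 44.3 ± 48.8 TPM in Sst-poor cells (-1.44). Insulin was not low: Ins1 and Ins2 had log2 ratios of 0.13 and 0.04.

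In old cells neither list was low, beside 13.3% of all genes 2-fold higher and 25.0% lower. The glucose-sensing list had 1 of 4 measured genes higher and 0 lower (median 0.38), and the beta-cell list had 1 of 12 higher and 1 lower (median -0.11). Slc2a2 averaged 238 TPM in old Sst-containing and 165 TPM in old Sst-poor cells, a log2 ratio of 0.53 that was -0.10 without the highest cell. Insm1, an endocrine transcription factor, was lower, at 22.5 ± 28.8 TPM in Sst-containing and 57.4 ± 66.5 TPM in Sst-poor cells (-1.31). The difference between the ages in these lists was not tested.

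Pcsk1, the convertase that begins the processing of proinsulin, was lower in Sst-containing cells at both ages. In old cells it had a median of 31.6 TPM in Sst-containing cells against 153 TPM in Sst-poor cells, and means of 56.9 ± 62.9 TPM in Sst-containing and 141 ± 117 TPM in Sst-poor cells (log2 ratio -1.29). In young cells the medians were 23.1 TPM in Sst-containing and 105 TPM in Sst-poor cells, and the means 68.1 ± 97.2 TPM in Sst-containing and 173 ± 202 TPM in Sst-poor cells (-1.33). The classes overlapped, with Sst-containing cells reaching 204 TPM in the old and 417 TPM in the young. Pcsk1 was the one lower gene at either age among 15 measured granule and processing genes, of which 0 were higher in old cells (list median 0.07) and 1 in young cells (list median -0.45).

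Among 3478 genes compared at both ages, 159 were 2-fold lower in Sst-containing cells at both. They were 22.3% of the 712 old lower genes in that set, beside 15.7% of all lower in the young, and 29.1% of the 547 young lower genes, beside 20.5% of all lower in the old. The higher genes shared 50, which is 12.3% of 406 in the old, beside 7.59% of all higher in the young, and 18.9% of 264 in the young, beside 11.7% of all higher in the old. Genes went opposite ways as well: 83 were higher in old and lower in young Sst-containing cells, and 70 were lower in old and higher in young ones. The 83 were 20.4% of the old higher genes, beside 15.7% of all lower in the young. The 70 were 9.83% of the old lower genes, beside 7.59% of all higher in the young. These shares too lay above those over all genes. A further filter asked that the change keep a 1.5-fold size without the highest cell. It also asked for the same sign in the mean log2 value and in the share of detecting cells. By mean log2 value, 73.2% of all genes compared in old cells and 77.5% in young cells were lower, which favours lower genes under this filter. The filter left 92 genes lower and 5 higher at both ages. The 5 were Pyy, Pold4, Chchd5, Rtn4rl1 and Ambp. Pold4, a small subunit of DNA polymerase delta, averaged 33.8 TPM in old Sst-containing and 0.909 TPM in old Sst-poor cells, and 18.4 TPM in young Sst-containing and 7.35 TPM in young Sst-poor cells. Ambp, the precursor of alpha-1-microglobulin and bikunin, averaged 21.4 TPM in old Sst-containing and 2.98 TPM in old Sst-poor cells, and 14.2 TPM in young Sst-containing and 1.70 TPM in young Sst-poor cells. These were transcripts of few cells, detected in 25.0 to 39.3% of Sst-containing cells for Pold4 and Ambp. In young runs of the low kind the log2 ratios were -1.08 for Pold4, -2.38 for Chchd5 and 0.0030 for Ambp.

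Spcs3, Tmed4 and Mpv17 were among the 92 genes lower at both ages. Spcs3, a subunit of the signal peptidase, averaged 160 ± 322 TPM in old Sst-containing and 327 ± 434 TPM in old Sst-poor cells (log2 ratio -1.02), and 124 ± 163 TPM in young Sst-containing and 270 ± 291 TPM in young Sst-poor cells (-1.11). Tmed4, of the p24 family of cargo receptors between endoplasmic reticulum and Golgi, had log2 ratios of -1.32 in old and -1.28 in young cells. Mpv17, a protein of the inner mitochondrial membrane, stood at -2.77 in old and -1.83 in young cells. Endoplasmic reticulum folding genes as a list stood at 0.03 in old cells (1 of 17 higher, 0 lower), above the -0.27 of all genes, and at -0.46 in young cells (0 higher, 1 lower), below the -0.21 of all genes.

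Among the genes lower in young Sst-containing cells by mean log2 value were Gorasp2, Ier3ip1 and Srp14. Gorasp2, a Golgi stacking protein, had medians of 7.95 TPM in Sst-containing and 91.0 TPM in Sst-poor cells (log2 ratio of means -1.54). Ier3ip1, a small membrane protein of the endoplasmic reticulum whose loss causes diabetes in people, had medians of 10.5 TPM in Sst-containing and 78.2 TPM in Sst-poor cells (-1.48). Srp14, a part of the signal recognition particle, had medians of 16.6 TPM in Sst-containing and 136 TPM in Sst-poor cells (-1.02). As a list, the nuclear genes of oxidative phosphorylation were not low in young cells, at a median of 0.04 with 0 of 20 higher and 1 lower.

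The list counts in this paragraph stand beside the shares over all genes. Those were 9.97% 2-fold higher and 18.5% lower in young cells, and 13.3% higher and 25.0% lower in old cells. Antioxidant and metal-response genes as a list had 3 of 14 measured members higher and 1 lower in young Sst-containing cells, with a median log2 ratio of -0.12. Mt1, Mt2 and Prdx4 were higher. Mt2, a metallothionein that binds zinc and copper, averaged 459 ± 1219 TPM in Sst-containing and 74.8 ± 147 TPM in Sst-poor cells. Its medians were 21.5 TPM in Sst-containing and 3.58 TPM in Sst-poor cells, and its log2 ratio was 2.60 (1.93 without the highest cell). Mt2 reached 5101 TPM in cell 38 and 4304 TPM in cell 43, and the ratio of 1.93 still holds cell 43. In the other young Sst-containing cells Mt2 was at most 653 TPM. Mt1, its neighbour and relative, averaged 1863 ± 4195 TPM in Sst-containing and 555 ± 812 TPM in Sst-poor cells (1.74). Nupr1, a stress-induced chromatin protein, was detected in 60.7% of Sst-containing and 43.8% of Sst-poor cells, with a log2 ratio of 1.31 (0.71 without the highest cell). Mt1, Mt2 and Nupr1 were not 2-fold higher in old Sst-containing cells. The integrated stress response list, which holds Nupr1 with Atf4 and Ddit3, had 1 of 8 genes higher and 0 lower in the young (median 0.54, with 1.19 in the low and 0.06 in the high kind of run) and 3 of 7 higher and 0 lower in the old (median 0.37). Of 12 measured immediate early genes, 3 were lower and 0 higher in the young (median -0.79), beside 18.5% of all genes lower. Their median was -0.10 within the low kind of run, above the -0.68 of all genes there, and -0.52 within the high kind. Egr1, one of the 3, had a median of 95.6 TPM in Sst-containing and 331 TPM in Sst-poor cells. In the old, 1 of 9 was higher and 0 lower (median 0.08).

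Rab27a and Snap47 were among the leading higher genes in old Sst-containing cells. Rab27a, a small GTPase that docks secretory granules, had a lowest, median and highest value of 0, 17.1 and 311 TPM in old Sst-containing cells and 0, 0.996 and 83.0 TPM in old Sst-poor cells. Its log2 ratio of means was 2.22, with 2.42 in the low and 2.32 in the high kind of run, and it was the gene with the highest Spearman correlation with Sst in old cells among the 3397 genes ranked under the mean filter (rho = 0.38). It was not higher in the 6 highest cells, where it averaged 5.88 TPM. Snap47, a SNARE-family protein, averaged 77.5 ± 161 TPM in old Sst-containing and 13.8 ± 52.3 TPM in old Sst-poor cells (2.41).

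Among signalling genes, Gng4, a G-protein gamma subunit, averaged 38.1 ± 83.0 TPM in old Sst-containing and 6.31 ± 19.0 TPM in old Sst-poor cells (log2 ratio 2.42, and 1.81 without the highest cell). The ratio was 0.38 in runs of the low kind and 5.12 in runs of the high kind. Rgs9, which speeds the switching off of G proteins, was detected in 50.0% of old Sst-containing and 6.25% of old Sst-poor cells, with means of 15.6 ± 38.3 TPM in Sst-containing and 0.372 ± 0.562 TPM in Sst-poor cells (log2 ratio 3.60, and 2.89 without the highest cell). Zfpl1, a Golgi membrane protein, was detected in 10 of 28 old Sst-containing cells and in 0 of 16 Sst-poor cells, and 4 of those 10 were among the 6 highest cells. Sstr3, the one somatostatin receptor gene above the filter, averaged 4.11 ± 6.00 TPM in old Sst-containing and 13.3 ± 28.6 TPM in old Sst-poor cells (log2 ratio -1.49, -0.62 without the highest cell, -0.05 in the low and -2.25 in the high kind of run), and 12.9 ± 23.0 TPM in young Sst-containing and 11.3 ± 21.2 TPM in young Sst-poor cells (0.18).

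Timm8b, Cct8, Vkorc1 and Slc25a5 were among the lower genes in old Sst-containing cells. Timm8b, a chaperone of mitochondrial import, averaged 33.9 ± 58.2 TPM in Sst-containing and 175 ± 239 TPM in Sst-poor cells (log2 ratio -2.34). Cct8, a subunit of the cytosolic chaperonin, had medians of 2.51 TPM in Sst-containing and 60.3 TPM in Sst-poor cells (-2.05). Vkorc1, the vitamin K epoxide reductase of the endoplasmic reticulum, was detected in 71.4% of Sst-containing and 100% of Sst-poor cells (-1.67). Slc25a5, an ADP/ATP carrier of the inner mitochondrial membrane, had medians of 125 TPM in Sst-containing and 438 TPM in Sst-poor cells (-1.01). The nuclear oxidative phosphorylation list had a median log2 ratio of means of -0.26, beside -0.27 for all genes, with 1 of 20 higher and 0 lower. By difference of mean log2 values the list stood at -1.09, below the -0.47 of all genes, and the mitochondrially encoded genes stood at 0.49 (0.58 by ratio of means, 1 of 13 higher).

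**Figure D5:**
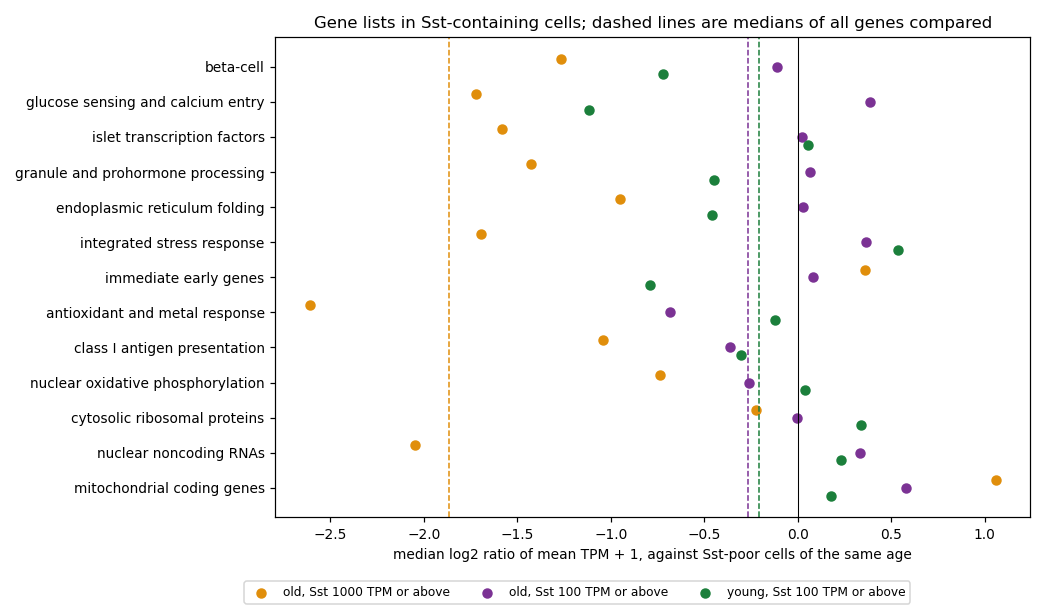
Median log2 ratio of mean TPM + 1, Sst-containing over Sst-poor cells of the same age, for 13 gene lists, with dashed lines at the medians of all genes compared. The mitochondrial coding genes lie at 1.06 in the 6 highest old cells, whose median over all genes is -1.87, and glucose sensing lies at 0.38 in old and -1.11 in young cells.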

How the data were processed

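The authors deposited TPM (transcripts per 1000000, summing to 1000000 in each cell) for 44448 NCBI Gene numbers and 207 cells. Per the submitters' processing notes the build was GRCm38/mm10 and the tools included CASAVA 1.8.2 and FastQC; the aligner, the quantification method and the use of strand are not stated in these sources, and sequencing depth per cell is unknown. RefSeq (GRCm38.p6) named 39725 of the gene numbers. Log2 ratios are of mean TPM + 1. With 1 sample per age no test was made; exact binomial intervals (95%) cover counting error only. Runs of cell numbers were cut where 4 technical measures shift together. Named genes were the 10 highest and 10 lowest per comparison by mean log2 difference among 2-fold genes robust to their highest cell, genes shared by both ages, all delta-cell markers and hormones, list extremes and the closest correlates of Sst. Other genes of the 6 highest cells, and Rbp4's rank, were chosen after values were seen. The members and lists were chosen with earlier results of these data known. No 2 cells had identical values. Scripts (Python 3, numpy, pandas) were tested on simulated data. A few genes that this rule names are not reported here.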

Additional observations from a re-analysis of the deposited data

How the results depend on the processing

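Changes of sign were counted only for ratios that were 2-fold or more in size as first computed. Of 53 named gene ratios recomputed under the alternatives, 47 had no such change, and 12 of 681 recomputed values had one. The sign of smaller ratios was not followed in these counts: young Gcg, for example, was -0.10 over all cells and 0.62 in runs of the high kind. Rgs2 in young cells was -0.47 as a difference of mean log2 values, -0.86 in runs of the low kind, -0.032 weighted by run, -0.030 rescaled, -2.30 without the highest cell and -2.24 without immune-rich cells. With Sst-poor cells taken below 1 TPM, young Pdyn was 2.45, Pyy -0.92 and Kcnj11 0.51, and old Spcs3 was 0.22. In runs of the low kind young Pdyn was 0.032 and old Gcg -0.20. The counts of 2-fold genes moved more. With 10 TPM added, 264 were higher and 599 lower in old cells, 178 and 333 in young cells, and 272 higher in the 6 highest cells, and the young delta-cell median was -0.17. With no filter the counts were 2365 and 2823 in old, 1684 and 2803 in young and 1062 and 6406 in the 6 highest cells, with a young delta-cell median of 0.011. With a mean of 50 TPM they were 84 and 226, 106 and 94, and 134 and 664, and that median was -0.0066; no old delta-cell marker remained. By difference of mean log2, 117 old and 28 young genes were higher, with 237 in the 6 highest, and the young delta-cell median was -0.20. Weighted by run, 292 old and 128 young genes were higher and 419 young ones lower, with that median at -0.11. Rescaled without Sst, insulin and mitochondrial genes, 1388 old genes were higher, 901 young genes higher and 1361 lower, and 1157 higher in the 6 highest, with an old delta-cell median of 1.08. Taking Sst-containing cells from 50 TPM gave 252 higher young genes and an old delta-cell median of 0.87, and from 200 TPM 1497 lower young genes and a young median of -0.25. Sst-poor cells below 1 TPM gave 1151 old and 960 young higher genes and a young median of 1.60. Runs of the low kind gave 879 young higher and 1762 lower genes, 783 higher in the 6 highest cells, and delta-cell medians of 2.68 in old and 1.11 in young cells, and runs of the high kind 906 higher old genes. Without cells 159 to 190, 869 old genes were higher. Alternatives chosen after the data were seen were cells with 3500 to 5000 detected genes (947 old and 1006 young genes higher, young delta-cell median 1.47), leaving out cell 183 (272 higher in the 6 highest cells) and leaving out immune-rich cells. The causes were not tested. The delta-cell medians rest on 4 old and 7 young genes of low level, so their sign was not stable, and sequencing depth per cell is unknown, so a gene listed at 0 may have been missed. No paired analysis was possible because cell numbers are not shared between the ages and no test was made.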
